A study of Mus musculus with 8 samples.

Results

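The clustered protocadherin genes were taken from the deposited RNA-seq table as every gene whose symbol was Pcdha, Pcdhb or Pcdhg followed by a number, which gave 25 of the 36808 genes listed. They were 22 beta genes (Pcdhb1 to Pcdhb22), 2 alpha genes (Pcdha1 and Pcdha3) and 1 gamma gene (Pcdhga11), and all 25 lie on the forward strand of mouse chromosome 18 (NCBI build 37). The study asked how Polycomb Repressive Complex 2 (PRC2), which places H3K27me3, acts while mouse embryonic stem cells (ESCs) differentiate to spinal motor neurons (SMNs). RNA-seq gave 8 libraries. At the ESC stage these were E14 wild type (129/Ola background), CJ7 wild type (129/S background), Suz12Δ (Suz12delta in the labels, C57/BL6 background) and Eednull (BALB/cR1 background). At day 5 of SMN directed differentiation, with retinoic acid and an agonist of Sonic Hedgehog signaling, they were E14 wild type, Suz12GT (129/Ola background), Suz12Δ and Eednull. Suz12GT is a gene trap that fuses SUZ12 to β-galactosidase and leaves part of H3K27me3 in place, Suz12Δ is a truncation of SUZ12, and Eednull carries a point mutation in Eed. Each mutant genotype is 1 cell line, while wild type is E14 and CJ7. Apart from Suz12GT each mutant line also has its own strain background. Line, strain and genotype thus cannot be told apart in comparisons with E14. ESCs were grown on irradiated mouse embryonic fibroblasts (MEFs), which were removed by letting them settle before the ESCs were collected. Suz12GT ESCs were not analysed here.

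Clustered protocadherins are cadherin-like adhesion proteins of the neuronal surface. Each neuron transcribes a varying subset of them from many alternative promoters, and the mixture on its surface serves as an identity that lets neurites of the same cell avoid each other. In the alpha and gamma clusters each variable first exon is spliced to constant exons shared by the whole cluster, whereas each beta gene is a single exon with a complete protein of its own. Choice among promoters is known to involve DNA methylation by DNMT3B, the insulator protein CTCF, cohesin and the chromatin protein SMCHD1.

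Every condition had 1 library, so no difference has a replicate check and no p-value is given. Values are FPKM, that is sequenced fragments per gene, corrected for the length of its transcripts and for the size of the library. Ratios between libraries are on the scale of log2(FPKM + 0.1), which understates the change of low genes, and a gene was compared where 1 or both of the 2 libraries had it at 0.1 FPKM or above. "At least 2-fold" is a rule of size and not a test. The number of reads behind each value is unknown. FPKM sums ranged from 389165 to 797748 per library. Suz12 RNA was at 41.3 FPKM in E14, 53.1 FPKM in CJ7, 6.21 FPKM in Suz12Δ and 35.7 FPKM in Eednull ESCs, and between 10.3 FPKM in Suz12GT and 17.6 FPKM in Eednull cells at day 5. Suz12 RNA was thus less far below E14 in Suz12Δ cells at day 5, at 11.6 FPKM against 16.2 FPKM, than in Suz12Δ ESCs. Eed RNA was at 42.4 FPKM in Eednull ESCs against 32.7 FPKM in E14 ESCs, and a point mutation need not change it. The label of the CJ7 library says that it was made and sequenced together with a library whose name is that of the Eednull ESC column.

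The clusters were not resolved alike in the table. The Pcdha1 entry (ENSMUSG00000007440) ran from 37089939 to 37347311 on chromosome 18 and had 10 start sites, so that it held the transcripts of the alpha cluster together. Pcdha3 (ENSMUSG00000091969) was listed over the same interval with 1 start site. The Pcdhga11 entry (ENSMUSG00000023036) ran from 37833989 to 38001527, also with 10 start sites, and stood for the gamma cluster as a whole. The C-type genes at the ends of the alpha and gamma clusters had no entry of their own. The 22 beta genes lay between the other clusters, from 37424652 to 37681073, each with its own entry. Pcdhb20 (ENSMUSG00000046191) is annotated as a pseudogene.

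Beta genes resemble one another, and the authors' processing spread reads that matched several places among them. The share of a gene's 32-base words that occur once in the genome ran from 74.2% for Pcdhb8 to 100% for Pcdhb1, and it was 85.7% for Pcdha1, 80.6% for Pcdha3 and 95.6% for Pcdhga11. The value of a single beta gene is thus less certain than that of the cluster. A shared sequence feature was looked for in the 300 bases around the annotated starts, 250 before and 50 after. The letters CGCT, the core of the element known from protocadherin promoters, were found on either strand in 22 of 22 beta windows, against 67.5% of 22375 protein-coding genes. On the forward strand they were found in 21 of 22 beta windows and in 51.2% of all windows. The beta windows were also poorer in G and C, with a median of 39.8% (range 33% to 52%) against 55% over protein-coding genes, and they held a median of 5 CpG sites against 11. A match of these letters is a description and not a binding site.

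In E14 wild-type cells the alpha and beta clusters were near the lowest measurable level in ESCs and were clearly present at day 5, while the gamma cluster was already present in ESCs. The beta genes summed to 1.09 FPKM in E14 ESCs and to 68.9 FPKM at day 5, a ratio of sums of 63.1. In ESCs 7 of the 22 beta genes were listed at 0 and none reached 1 FPKM. At day 5 only Pcdhb8 was listed at 0 and 19 of 22 were at 1 FPKM or more. A listed 0 can be a failed estimate, since Tubb3, a neuronal tubulin, was listed at 0 in all 8 libraries.

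Of the 23 members compared, 22 were at least 2-fold higher at day 5 than in ESCs and 0 were at least 2-fold lower, where 18.3% and 25.8% of all genes compared were. Here and below, a gene that passed the minimum of 0.1 FPKM only through its higher library had to differ. The others were Pcdhga11 and 2 beta genes not compared, Pcdhb1 and Pcdhb8, that did not reach 0.1 FPKM in either library. The median log2 ratio over the 20 beta genes compared was 4.32, and 4.29 over all 22, against -0.20 over all genes. Pcdha1 went from 0.429 to 11.04 FPKM, a log2 ratio of 4.40, and Pcdha3 from 0.00554 to 1.92 FPKM, a log2 ratio of 4.26. Pcdhga11 went from 17.5 to 31.5 FPKM, a log2 ratio of 0.84, below 2-fold. The alpha and beta clusters thus differed from the gamma cluster both in their ESC level and in the size of the increase. Cell type markers moved over the same interval. Of the 8 general neuron markers compared 7 were at least 2-fold higher and 0 lower at day 5 than in ESCs, with a median log2 ratio of 4.28, and the 4 SMN markers were all higher, with a median of 6.02. The 12 fibroblast markers were all at least 2-fold lower, with a median of -3.63, and summed to 161 FPKM in ESCs and 20.02 FPKM at day 5. The part of cell composition in the protocadherin increase was not tested.

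**Figure D1:**
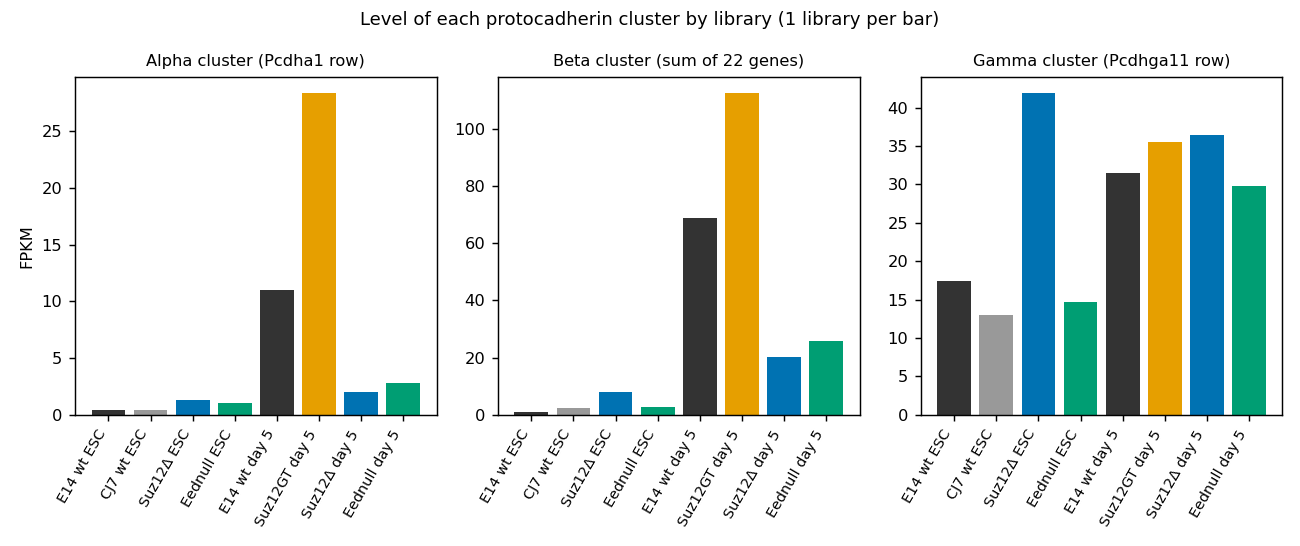
Level of each cluster in each of the 8 libraries in FPKM, as 1 bar per library, for the Pcdha1 entry, the sum of the 22 beta genes and the Pcdhga11 entry. The alpha and beta panels are highest in Suz12GT cells at day 5 (28.3 and 112 FPKM), while the gamma panel is highest in Suz12Δ ESCs (41.9 FPKM).

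The beta genes with the highest mean of log2(FPKM + 0.1) over the 8 libraries were Pcdhb22, Pcdhb17, Pcdhb20 and Pcdhb2. By mean FPKM the order differs, with Pcdhb6, described below, second after Pcdhb22. Pcdhb22, the last gene of the cluster, was at 0.174 FPKM in E14, 0.584 FPKM in CJ7, 1.78 FPKM in Suz12Δ and 0.540 FPKM in Eednull ESCs, and at 8.02 FPKM in E14, 10.03 FPKM in Suz12GT, 5.08 FPKM in Suz12Δ and 5.58 FPKM in Eednull cells at day 5. Pcdhb17 was at 0.257, 0.190, 1.70 and 0.399 FPKM in the ESC libraries in the same order, and at 6.15, 7.37, 1.66 and 1.99 FPKM at day 5. Pcdhb22 thus kept most of its E14 level in the Suz12Δ and Eednull day 5 cells, and Pcdhb17 did not. Pcdhb20 was at 0.0667, 0.216, 0.509 and 0.0745 FPKM in ESCs and at 5.12, 6.99, 1.75 and 1.90 FPKM at day 5. Pcdhb2, at the other end of the cluster, was at 0.0801, 0.1201, 0.273 and 0.108 FPKM in ESCs and at 4.94, 8.40, 1.497 and 1.86 FPKM at day 5. All 4 of these genes were highest in Suz12GT day 5 cells and second in E14 day 5 cells.

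That order held for most of the cluster. Suz12GT day 5 was the highest of the 8 libraries for 22 of 22 beta genes and for 24 of the 25 genes, against 14.5% of the 27963 genes at 0.1 FPKM or more in some library. E14 day 5 was second for 20 of 22 beta genes. The day 5 libraries of E14 and Suz12GT were both above those of Suz12Δ and Eednull for 20 of 22. For 18 of 22 all 4 day 5 libraries were above all 4 ESC libraries. The exception among the 25 genes to Suz12GT being highest was Pcdhga11, which was highest in Suz12Δ ESCs. Here and below, no share over all genes was computed for the other orders or for counts of genes higher or lower by any amount.

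**Figure D2:**
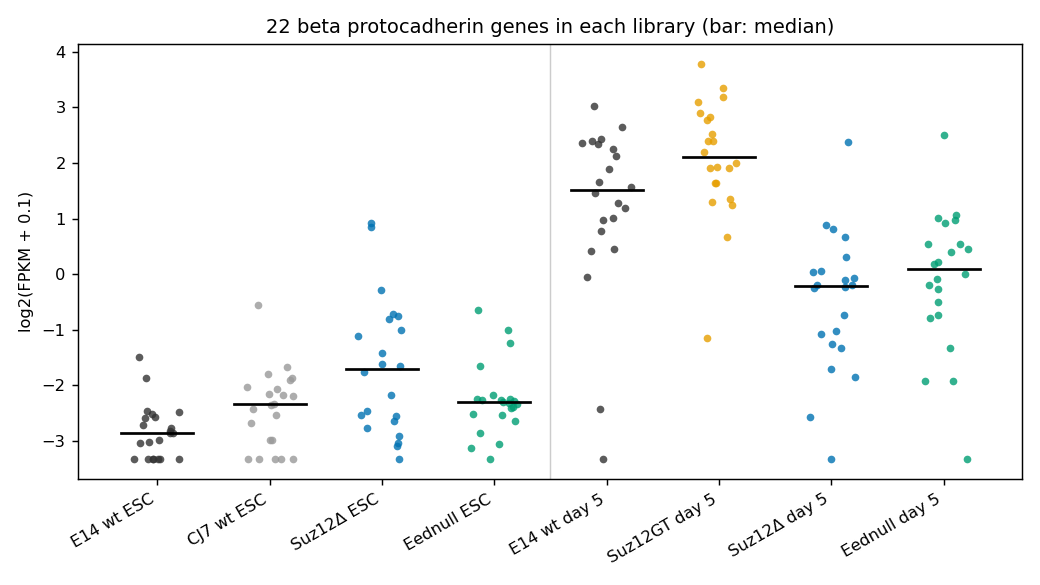
Each of the 22 beta genes in each library on the scale of log2(FPKM + 0.1), 1 point per gene, with the ESC libraries left of the grey line, the day 5 libraries right of it and a bar at the median gene. The median gene was at 0.0388 FPKM in E14 ESCs, 2.75 FPKM in E14 and 4.21 FPKM in Suz12GT cells at day 5, and lay between these stages in Suz12Δ (0.763 FPKM) and Eednull (0.974 FPKM) cells at day 5.

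The composition of the beta cluster was broad at day 5. The 4 highest genes took 35.7% of the summed beta FPKM in E14 and 36.5% in Suz12GT cells, and 49.7% in Suz12Δ and 43.8% in Eednull cells. In ESCs, where the sums were between 1.09 and 7.88 FPKM, the 4 highest took between 47.6% (CJ7) and 59.8% (Suz12Δ). Pcdhb22 was the highest beta gene in 6 of the 8 libraries, with Pcdhb17 leading in E14 ESCs and Pcdhb6 in Suz12GT cells at day 5. Across the 22 beta genes the levels at day 5 had a Spearman rho of 0.93 between E14 and Suz12GT, 0.94 between E14 and Eednull, 0.81 between E14 and Suz12Δ and 0.91 between Suz12Δ and Eednull cells. It was 0.84 between Suz12GT and Eednull and 0.68 between Suz12GT and Suz12Δ cells, the latter close to the 0.67 between E14 ESCs and E14 cells at day 5. These values describe the order of 22 genes that share sequence and, within a library, depth. The order of the beta genes at day 5 was thus least alike between Suz12GT and Suz12Δ cells.

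**Figure D3:**
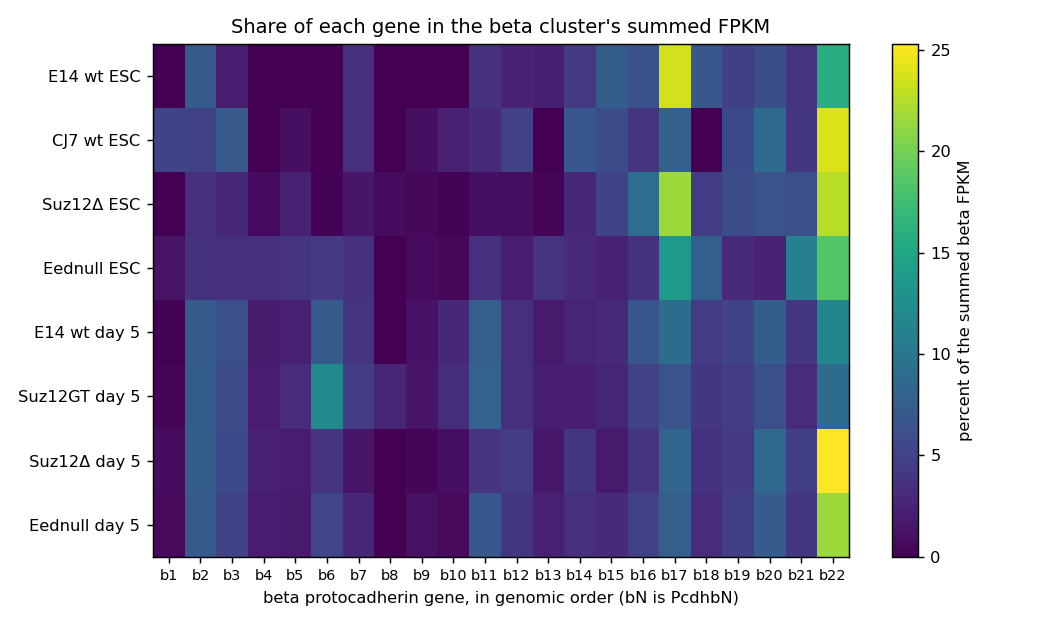
Share of each beta gene in the summed beta FPKM of its library in percent, by color, with libraries from top to bottom and genes in their order along the cluster. Pcdhb22 is the bright column in most libraries. Pcdhb17 stands out beside it in E14 (23.5%), Suz12Δ (21.5%) and Eednull (13.7%) ESCs. In E14 and Suz12GT cells at day 5 the signal is spread over more genes, with 35.7% and 36.5% in the 4 highest.

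Suz12GT cells at day 5 had more RNA of the alpha and beta clusters than E14 cells at day 5, a pair on the same strain background. The beta genes summed to 112 FPKM against 68.9 FPKM, a ratio of 1.63, and 22 of 22 were higher by any amount. Relative to E14 they ranged from 119.7% for Pcdhb17 to 413% for Pcdhb1, with a median of 167% over the 21 genes above 0 in E14. At least 2-fold higher were 6 of the 25 genes (24% of them), against 16.8% of all genes, and 0 were at least 2-fold lower, against 4.4%. The count of 2-fold changes was thus not far from the background, while the median log2 ratio of the beta genes was 0.72 against 0.13 over all genes.

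Those 6 genes were both alpha genes, Pcdhb1, Pcdhb5, Pcdhb6 and Pcdhb8. Pcdha1 was at 28.3 FPKM in Suz12GT against 11.04 FPKM in E14 cells, a log2 ratio of 1.35, and Pcdha3 at 5.68 against 1.92 FPKM, a log2 ratio of 1.51. Pcdhb6 was at 13.7 against 5.01 FPKM, a log2 ratio of 1.43, after being at 0 in the E14 and CJ7 ESC lists, and at 0.0215 FPKM in Suz12Δ and 0.121 FPKM in Eednull ESCs. Pcdhb8 is the least certain of the genes. It was listed at 3.03 FPKM in Suz12GT day 5 cells, at 0.0698 FPKM in Suz12Δ ESCs and at 0 in the other 6 libraries, and 13.8% of its words are shared with Pcdhb6, the beta gene with the highest value in that library. Pcdhga11 was at 35.5 against 31.5 FPKM, a log2 ratio of 0.17.

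Markers of several cell types were also higher in Suz12GT cells, though the median of the neural progenitor markers was lower. Of all genes 16.8% were at least 2-fold higher and 4.4% lower in this comparison. Of the 8 general neuron markers compared, such as Stmn2, Dcx and Nefl, 4 were at least 2-fold higher and 0 lower than in E14 day 5 cells, with a median log2 ratio of 0.89. They summed to 966 FPKM in Suz12GT against 513 FPKM in E14 cells. The 4 SMN markers (Isl1, Mnx1, Lhx3 and Chat) had a median log2 ratio of 0.15, with 0 of 4 past 2-fold. Of the 5 neural progenitor markers 1 was at least 2-fold higher and 2 lower, with a median of -0.96. Of the 12 fibroblast markers 9 were at least 2-fold higher and 0 lower, with a median of 1.58, at a sum of 41.0 FPKM against 20.02 FPKM. The 6 pluripotency markers were all at least 2-fold higher, with a median of 2.49, at a sum of 7.65 FPKM against 0.776 FPKM. The part of cell composition in the protocadherin difference was not tested, and in bulk RNA fewer cells of a type and less RNA per cell cannot be told apart.

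In Suz12Δ and Eednull cells at day 5 the alpha and beta clusters were well below E14, and the gamma cluster was not. The beta genes summed to 20.1 FPKM in Suz12Δ and 25.9 FPKM in Eednull cells, ratios of 0.292 and 0.375 to the E14 sum. In Suz12Δ cells 21 of the 24 members compared were at least 2-fold lower and 0 higher, where 9.52% of all genes were lower and 26.6% higher. In Eednull cells 19 of 24 were at least 2-fold lower and 0 higher, where 11.3% were lower and 21.6% higher. The members thus went against the balance of all genes, more of which were higher than lower in both lines. With a pseudocount of 1 the counts lower were 14 and 13. Both comparisons use the same E14 library.

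The median log2 ratio of the beta genes compared was -1.81 in Suz12Δ and -1.39 in Eednull cells, against 0.26 and 0.08 over all genes. The median beta gene was at 25.2% of its E14 level in Suz12Δ and at 34.4% in Eednull cells. Pcdha1 was at 2.01 FPKM in Suz12Δ and 2.79 FPKM in Eednull cells against 11.04 FPKM in E14, log2 ratios of -2.40 and -1.95. Pcdha3 was at 0.135 and 0.300 FPKM against 1.92 FPKM, log2 ratios of -3.11 and -2.34. Pcdhga11 was at 36.5 and 29.8 FPKM against 31.5 FPKM, log2 ratios of 0.21 and -0.08.

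The depth of the reduction varied along the beta cluster. Pcdhb7 had the lowest log2 ratio of a beta gene in Suz12Δ cells, -2.78, at 0.298 FPKM against 2.64 FPKM in E14, and it was at 0.728 FPKM in Eednull cells. Pcdhb10 had the lowest in Eednull cells, -2.94, at 0.163 FPKM against 1.92 FPKM, and it was at 0.207 FPKM in Suz12Δ cells. Pcdhb22 was the least reduced beta gene in both lines among those at 1 FPKM or more in E14, with log2 ratios of -0.65 and -0.52. Pcdhb1, the first gene of the cluster and the one with no repeated words, went the other way at low level, with 0.177 FPKM in Suz12Δ and 0.164 FPKM in Eednull cells against 0.0853 FPKM in E14 and 0.352 FPKM in Suz12GT cells. Eednull was above Suz12Δ for 18 of 22 beta genes at day 5, a small difference next to that from E14.

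**Figure D4:**
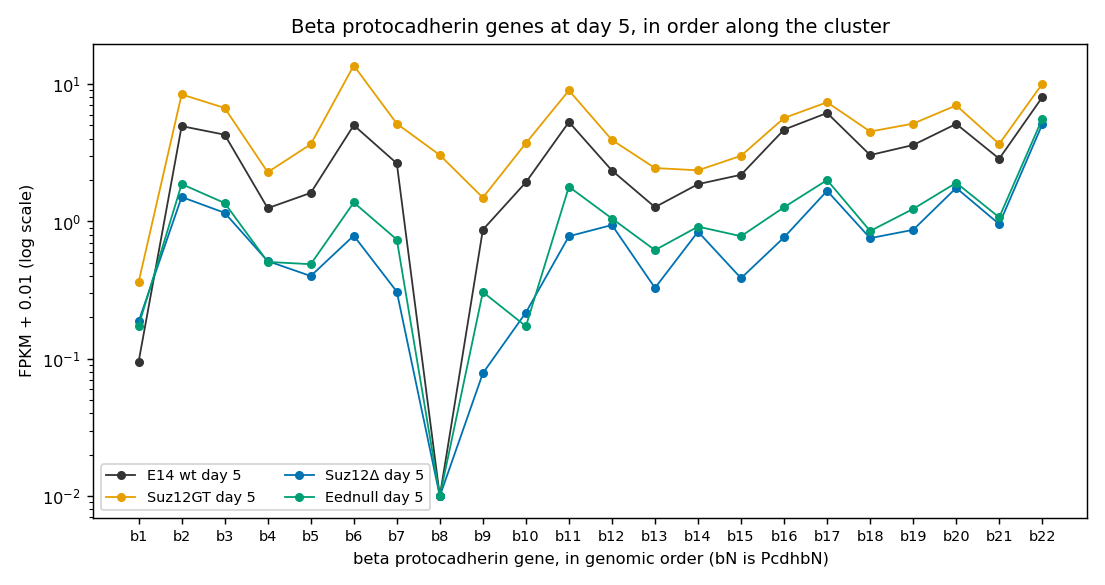
Beta genes at day 5 in their order along the cluster, as FPKM + 0.01 on a log axis, with 1 line per cell line. Suz12GT lies above E14 at every gene, Suz12Δ and Eednull lie below E14 at 20 of 22, and the lines come closest at Pcdhb22 and cross at Pcdhb1. The dip at Pcdhb8 is a listed 0 in 3 libraries.

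Markers of neurons were further below E14 than the protocadherins in these libraries. All 8 general neuron markers compared were at least 2-fold lower in both lines, with median log2 ratios of -5.41 in Suz12Δ and -5.55 in Eednull cells, and they summed to 12.6 and 12.5 FPKM against 513 FPKM in E14. The 4 SMN markers were all at least 2-fold lower, with medians of -2.96 and -4.17. Of all genes 9.52% in Suz12Δ and 11.3% in Eednull cells were at least 2-fold lower. Fibroblast markers moved the opposite way, where 26.6% of all genes in Suz12Δ and 21.6% in Eednull cells were at least 2-fold higher. All 12, such as Col1a1 and Col3a1, were at least 2-fold higher than in E14 day 5 cells in both lines, and they summed to 222 FPKM in Suz12Δ and 119.7 FPKM in Eednull against 20.02 FPKM in E14 and 41.0 FPKM in Suz12GT cells. The part of cell composition in the protocadherin differences was not tested.

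The mutant lines were then compared with their own ESCs. Beta genes were higher at day 5 in both lines, by less than in E14. The sum went from 7.88 to 20.1 FPKM in Suz12Δ cells, a ratio of 2.55, and from 2.91 to 25.9 FPKM in Eednull cells, a ratio of 8.88, next to 63.1 in E14. The log2 increase was smaller than in E14 cells for 21 of 22 beta genes in Suz12Δ and for 20 of 22 in Eednull cells. These lines differed both in their ESC level and at day 5, so each increase depends on its own starting library.

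In Suz12Δ cells 13 of the 23 members compared were at least 2-fold higher at day 5 than in ESCs and 0 lower, where 26.9% of all genes were higher and 12.6% lower. This count depended on the pseudocount, and was 1 with a pseudocount of 1. With a minimum of 1 FPKM it was 4, where only 5 beta genes, 1 alpha gene and 1 gamma gene were compared. The median over the 20 beta genes compared was 1.47, against 0.43 over all genes, and it was 0.86 over the 9 beta genes with at least 90% of words found once in the genome. Pcdhb2 had the largest log2 ratio of a beta gene at 1 FPKM or more, 2.10, while Pcdhb17 was at 1.70 FPKM in ESCs and 1.66 FPKM at day 5, a log2 ratio of -0.03. Pcdha1 went from 1.28 to 2.01 FPKM, a log2 ratio of 0.61, and Pcdhga11 from 41.9 to 36.5 FPKM, a log2 ratio of -0.20.

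In Eednull cells 22 of the 24 members compared were at least 2-fold higher at day 5 than in ESCs and 0 lower, where 18.4% of all genes were higher and 24.8% lower. With a pseudocount of 1 the count was 9, and with a minimum of 1 FPKM it was 13 of the 13 compared. The median over the 21 beta genes compared was 2.34, against -0.08 over all genes. Pcdhb20 had the largest log2 ratio, 3.52, from 0.0745 to 1.90 FPKM. Pcdha1 went from 1.04 to 2.79 FPKM, a log2 ratio of 1.34, and Pcdhga11 from 14.8 to 29.8 FPKM, a log2 ratio of 1.01. Over the same interval 2 of the 8 general neuron markers compared were at least 2-fold higher and 3 lower in Eednull cells, with a median log2 ratio of -0.61, and 1 was higher and 1 lower in Suz12Δ cells, with a median of 0.12. Their sum went from 72.1 to 12.5 FPKM in Eednull and from 48.4 to 12.6 FPKM in Suz12Δ cells, and most of that fall was Stmn2, which went from 49.9 to 4.59 FPKM and from 39.9 to 4.92 FPKM. SMN markers were higher at day 5, in 2 of the 3 compared in Eednull cells (median 1.97) and in 3 of 3 in Suz12Δ cells (median 3.71). The part of neuron content in these increases was not tested.

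**Figure D5:**
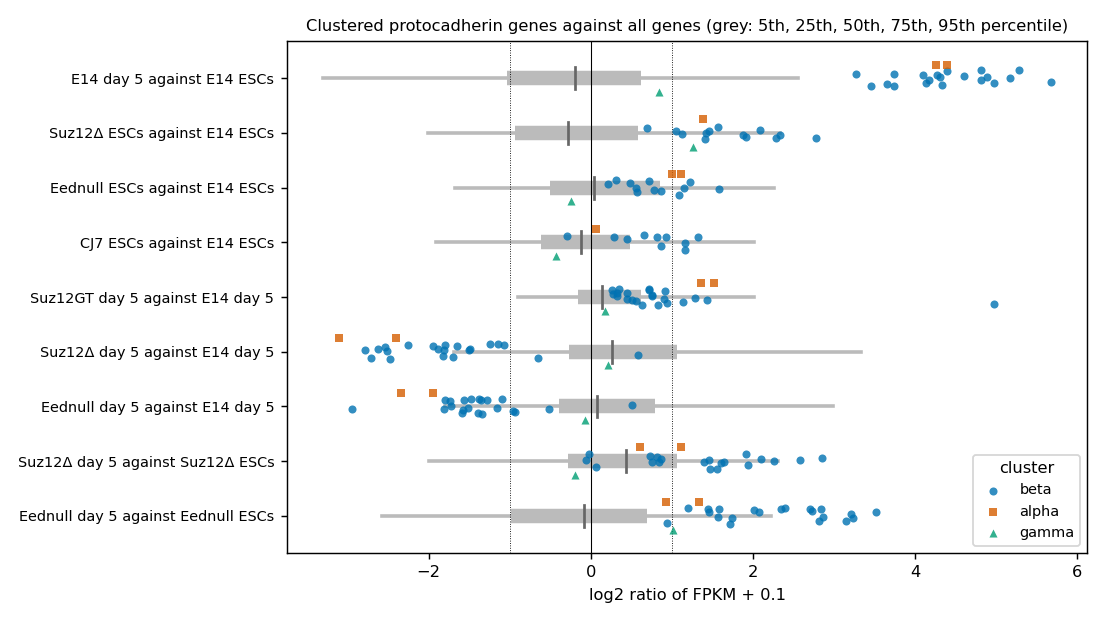
Log2 ratio of FPKM + 0.1 for each clustered protocadherin gene past the minimum in 9 comparisons, as blue circles (beta), orange squares (alpha) and green triangles (gamma). Grey bars give the 5th, 25th, 50th, 75th and 95th percentile of all genes compared and dotted lines mark 2-fold. Alpha and beta genes lie right of the bars in E14 differentiation (beta median 4.32) and left of zero in Suz12Δ and Eednull cells at day 5 (-1.81 and -1.39).

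In ESCs the beta cluster was low in every line and highest in Suz12Δ. The beta genes summed to 1.09 FPKM in E14, 2.45 FPKM in CJ7, 2.91 FPKM in Eednull and 7.88 FPKM in Suz12Δ ESCs. In Suz12Δ against E14 ESCs 14 of the 15 members compared were at least 2-fold higher and 0 lower, where 18% of all genes were higher and 22.8% lower. With no minimum the count was 14 of all 25. Only Pcdha1, Pcdhga11 and 2 beta genes reached 0.1 FPKM in E14 ESCs, so the other members compared passed the minimum only through Suz12Δ. With a pseudocount of 1 the count was 3, and with a minimum of 1 FPKM it was 4 of the 4 compared. The median log2 ratio was 1.57 over the 13 beta genes compared and 1.08 over all 22, against -0.28 over all genes. Only 2 beta genes reached 1 FPKM in any ESC library. Pcdhb22 was at 1.78 FPKM in Suz12Δ against 0.174 FPKM in E14 ESCs, a log2 ratio of 2.78, and Pcdhb17 at 1.70 against 0.257 FPKM, a log2 ratio of 2.33. Pcdha1 was at 1.28 against 0.429 FPKM, a log2 ratio of 1.38. Pcdhga11 was at 41.9 against 17.5 FPKM, a log2 ratio of 1.25, and was also above the 13.0 FPKM of CJ7 ESCs.

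Fibroblast markers were high in the same library, where 18% of all genes were at least 2-fold higher than in E14 ESCs. All 12 were at least 2-fold higher in Suz12Δ than in E14 ESCs, with a median log2 ratio of 2.25, and they summed to 768 FPKM in Suz12Δ against 161 FPKM in E14, 161 FPKM in CJ7 and 405 FPKM in Eednull ESCs. Col1a1 was at 148 FPKM in Suz12Δ, 104 FPKM in Eednull, 43.5 FPKM in CJ7 and 27.9 FPKM in E14 ESCs. The part of fibroblast RNA in the protocadherin levels of these ESC libraries was not tested.

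Eednull ESCs differed less from wild type, and the answer depended on the wild-type line. Against E14 ESCs 5 of the 15 members compared (33.3%) were at least 2-fold higher and 0 lower, where 22.4% of all genes were higher and 11.9% lower. The count was 0 with a pseudocount of 1 and 11 with 0.01. The median over the 12 beta genes compared was 0.75. Against CJ7 ESCs, with which the Eednull ESC library appears by its name to have been made, the median over 18 beta genes was 0.01, with 10 of 22 higher by any amount and 11 lower. CJ7 itself had 3 of the 12 members compared (25%) at least 2-fold higher than E14 ESCs and 0 lower, where 15.7% of all genes were higher and 14.7% lower. Its beta median was 0.84 over 10 genes. A beta difference of the size seen between Eednull and E14 ESCs was thus also seen between the wild-type lines. Pcdha1 was at 1.04 FPKM in Eednull ESCs against 0.429 FPKM in E14 and 0.452 FPKM in CJ7, log2 ratios of 1.11 and 1.05, and Pcdhga11 at 14.8 FPKM lay between CJ7 (13.0 FPKM) and E14 (17.5 FPKM).

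With CJ7 in place of E14, Suz12Δ ESCs remained higher, with a beta median of 1.02 over 15 genes, log2 ratios of 1.32 for Pcdha1 and 1.68 for Pcdhga11, and 19 of 22 beta genes higher by any amount. Both mutant ESC libraries were above both wild-type libraries for 10 of 22 beta genes. Suz12Δ was above Eednull for 17 of 22. Without a share over all genes these counts describe the beta genes only. The beta cluster was thus higher in Suz12Δ ESCs than in each other ESC library, whereas Eednull ESCs were not separated from CJ7.

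The cluster was divided by position after its values were seen, into Pcdhb1 to Pcdhb11 and Pcdhb12 to Pcdhb22. No minimum was applied here. In Suz12Δ against E14 ESCs the median log2 ratio was 0.69 over the first 11 genes and 1.87 over the last 11. At least 2-fold higher were 9 of the last 11 and 3 of the first 11, next to 18% of all genes past the minimum. Of the first 11 only Pcdhb2, Pcdhb3, Pcdhb5 and Pcdhb7 reached 0.1 FPKM in either library, and of the last 11 only Pcdhb12 and Pcdhb13 did not. The added 0.1 understates the ratios of such low genes, and the part of low level in this contrast was not tested. In Suz12GT against E14 cells at day 5 the order was the other way, with 0.92 over the first 11 and 0.44 over the last 11. The 4 beta genes at least 2-fold higher were all among the first 11, where 16.8% of all genes past the minimum were higher. Among these 4 were Pcdhb8, listed at 0 in E14 cells at day 5, and Pcdhb1, at 0.0853 FPKM there. In Suz12Δ and Eednull cells at day 5 both sets of 11 were alike, at -1.81 and -1.70 in Suz12Δ and -1.52 and -1.38 in Eednull cells. The median share of words found once in the genome was 83.0% in the first 11 genes and 91.7% in the last 11, so sequence uniqueness moves with position, and its part in these differences was not tested.

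Genes beside and between the clusters had other values than the beta genes. Of the 16 compared, 1 was at least 2-fold higher and 5 lower in E14 cells at day 5 than in ESCs, next to 18.3% and 25.8% of all genes, with a median log2 ratio of -0.37. Taf7, which lies between the beta and gamma clusters and encodes a subunit of the general transcription factor TFIID, went from 50.8 to 15.5 FPKM. Against E14 at day 5 the medians were 0.17 in Suz12GT, 0.18 in Suz12Δ and 0.08 in Eednull cells. Of 17 compared, 2, 3 and 2 genes were at least 2-fold higher, next to 16.8%, 26.6% and 21.6% of all genes. Lower were 0, 1 and 1, next to 4.4%, 9.52% and 11.3%. Rell2 was among the exceptions, at 2.61 FPKM in E14 and 0.759 FPKM in Suz12Δ and 0.526 FPKM in Eednull cells.

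The genes known to regulate these promoters were measured in all libraries. Of 23, such as Ctcf, the cohesin genes, the DNA methyltransferases and Smchd1, 2 were at least 2-fold higher and 5 lower in E14 cells at day 5 than in ESCs, next to 18.3% and 25.8% of all genes. Dnmt3b, the de novo methyltransferase known to act on protocadherin promoters, was at 50.9, 51.7, 28.4 and 53.1 FPKM in E14, CJ7, Suz12Δ and Eednull ESCs and at 3.58, 3.05, 7.74 and 6.96 FPKM in E14, Suz12GT, Suz12Δ and Eednull cells at day 5. Ctcf was between 35.2 and 42.4 FPKM in the day 5 libraries. Against E14 at day 5, 1 of the 23 was at least 2-fold higher in Suz12GT cells. Of the 22 compared in the other lines, 3 were higher in Suz12Δ and 1 in Eednull cells. Of all genes 16.8%, 26.6% and 21.6% were higher in these comparisons. In each 0 were lower, next to 4.4%, 9.52% and 11.3% of all genes. In Suz12Δ against E14 ESCs 12 of 23 were at least 2-fold lower and 1, Dnmt3l, higher, among the former Ctcf at 17.1 against 40.1 FPKM and Smchd1 at 13.6 against 28.6 FPKM, with a median log2 ratio of -1.03, below the -0.28 of all genes. In Eednull against E14 ESCs 1 was higher, again Dnmt3l, and 0 were lower, next to 22.4% and 11.9% of all genes.

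Protocadherins outside the clusters differed from the beta genes in some comparisons and moved the same way in others. Of 11 in the table, 5 of the 9 compared were at least 2-fold higher and 0 lower in E14 cells at day 5 than in ESCs, next to 18.3% and 25.8% of all genes, and the median over the 9 was 1.09, next to 4.32 for the beta genes. In Suz12GT against E14 cells at day 5, 6 of 9 were higher and 0 lower, next to 16.8% and 4.4% of all genes. Their median was 1.01, next to 0.72 for the beta genes. In Suz12Δ and Eednull against E14 cells at day 5 the medians were 0.70 and 0.77, where the beta genes were lower. In each, 3 of the 10 compared were higher, not far from the 26.6% and 21.6% of all genes. In each 0 were lower, next to 9.52% and 11.3%. In Suz12Δ against E14 ESCs 8 of 10 were higher and 1 lower, next to 18% and 22.8% of all genes. The median there was 1.87, next to 1.57 for the beta genes compared. In Eednull against E14 ESCs 6 of 10 were higher and 0 lower, next to 22.4% and 11.9%. The median there was 1.08, next to 0.75 for the beta genes compared. Pcdh7, for example, was at 1.15 FPKM in E14, 2.18 FPKM in CJ7, 11.5 FPKM in Suz12Δ and 3.45 FPKM in Eednull ESCs.

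Intracellular partners of clustered protocadherins, such as the kinases Ptk2, Ptk2b, Fyn and Ret and subunits of the WAVE actin complex, were mostly present in every library. Of 16 in the table, 5 were at least 2-fold higher and 1 lower in E14 cells at day 5 than in ESCs, next to 18.3% and 25.8% of all genes. One of the 5 was Axin1, listed at 0 in E14 ESCs and between 12.6 and 22.6 FPKM in the other libraries, where the 0 can be a failed estimate. Against E14 at day 5, 2 of 16 were higher and 0 lower in Suz12GT, 1 higher and 2 lower in Suz12Δ, and 1 higher and 3 lower in Eednull cells. Of all genes 16.8%, 26.6% and 21.6% were higher in these comparisons and 4.4%, 9.52% and 11.3% lower. Ret was at 13.9 FPKM in E14, 32.7 FPKM in Suz12GT, 2.82 FPKM in Suz12Δ and 0.982 FPKM in Eednull cells at day 5. Fyn was at 44.4, 48.9, 18.4 and 22.6 FPKM in the same order. Most of the other partners differed by less than 2-fold, and the list median lay between -0.12 and 0.15 in the 3 comparisons with E14 at day 5.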

How the data were processed

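RNA was measured by RNA-seq in 8 libraries, 1 per condition. The values that the authors deposited are FPKM, 1 per gene and library. They aligned reads to mm9 (NCBI build 37) with Bowtie 0.12.7 under TopHat 1.3.2 and quantified an Ensembl-based annotation by Cuffdiff and Cufflinks 1.2.1 with bias correction and apportioning of reads that map to several places. The last step sets how reads are divided among similar beta genes. No counts were used, so depth is unknown and no interval is given. Groups were taken from the sample labels. For log2 ratios 0.1 was added to each FPKM, genes under 0.1 FPKM in both libraries were left out, and nothing was rescaled. Members and gene lists were chosen with earlier results of these data known. Named genes were, in each cluster, the 4 with the highest mean log2 level and, per comparison, the largest rise and fall among genes at 1 FPKM or more. Other genes were named with their list or, like Pcdhb1 and Rell2, after their values were seen. C-type genes could not be given. Sox1, Slc18a3, Map2, Pcdh21, Brk1 and Diaph1 were not found under these symbols (Diap1 was), and Pcdh15 had 2 entries and was left out. Marker lists for ESCs (6 genes), neural progenitors (5) and choroid plexus or meninges (3) were also computed. Exon and start positions came from GENCODE vM1 on build 37, which held all 25 genes, and word uniqueness from that genome. The ratio code was tested on simulated data. Alternatives were no minimum, a minimum of 1 FPKM, a pseudocount of 1 or of 0.01, a common 75th percentile, CJ7 as wild type and 2 added after the values were seen. Python 3.11.15, NumPy 2.4.6, pandas 2.3.3, SciPy 1.17.1 and matplotlib 3.10.9 were used.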

Additional observations from a re-analysis of the deposited data

How the results depend on the processing

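No paired analysis was possible because each condition had 1 library, and for the same reason no library could be left out. In the day 5 comparisons with E14 the direction of the beta median held under each alternative tried, while a pseudocount of 1 lowered the members at least 2-fold lower from 21 to 14 in Suz12Δ and from 19 to 13 in Eednull cells and those higher in Suz12GT cells from 6 to 4. A common 75th percentile, set on 17842 genes, shifted the median of all genes by between -0.37 and 0.36 on the log2 scale. It left each count within 1.5 times. Each beta median stayed within a 95% interval of the main median, taken from the ranks of the members, which are not replicates. A pseudocount of 1 lowered the beta median to 1.90 in E14 day 5 against ESCs, to 0.37 in Suz12Δ, 0.14 in Eednull and 0.14 in CJ7 against E14 ESCs, to 0.37 in Suz12Δ and 0.80 in Eednull day 5 against their ESCs, and gave -1.21 for Suz12Δ and -1.05 for Eednull against E14 at day 5. With it 3, 0 and 0 members were at least 2-fold higher in Suz12Δ, Eednull and CJ7 against E14 ESCs, and 1 and 9 in Suz12Δ and Eednull day 5 against their ESCs. A pseudocount of 0.01 gave beta medians of 5.87 in E14 day 5 against ESCs, 2.76 in Suz12Δ, 1.51 in Eednull and 1.60 in CJ7 against E14 ESCs, and 3.25 in Eednull day 5 against ESCs, with 11 members higher in Eednull and 7 in CJ7 against E14 ESCs. A minimum of 1 FPKM left 4, 1 and 0 members at least 2-fold higher in Suz12Δ, Eednull and CJ7 against E14 ESCs and 4 and 13 in Suz12Δ and Eednull day 5 against their ESCs, since fewer genes were compared. It gave a beta median of 2.56 over 2 genes for Suz12Δ ESCs and none for Eednull and CJ7 ESCs, where no beta gene was left. With no minimum the beta median was 1.08 in Suz12Δ and 0.47 in Eednull against E14 ESCs. With CJ7 as wild type it was 1.02 in Suz12Δ ESCs, where 1 member, Pcdhb1, was at least 2-fold lower, and 0.0059 in Eednull ESCs, and Pcdhb22 in Eednull ESCs turned to -0.10. Except where a setting's construction shows the cause, the cause was not tested. Of 2 alternatives added after the values were seen, the beta genes with at least 90% of words found once in the genome (9, of which 5 to 9 were compared) gave 0.86 in place of 1.47 for Suz12Δ day 5 against its ESCs, and their other medians, like those over genes above 0 in both libraries, moved by under 1.5 times. Differences among ESC libraries rest on values mostly under 1 FPKM, where depth, which is unknown, limits what can be told.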

Other observations

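The pluripotency markers, which give the stage of each library, were at least 2-fold lower at day 5 than in ESCs for 6 of 6 genes in E14, Suz12Δ and Eednull cells, but differed across lines at day 5. Pou5f1, which encodes OCT4, was at 130 FPKM in E14 ESCs and at 0.302 FPKM in E14, 1.80 FPKM in Suz12GT, 2.12 FPKM in Suz12Δ and 0.340 FPKM in Eednull cells at day 5. The 6 markers summed to 0.776 FPKM in E14, 7.65 FPKM in Suz12GT, 13.4 FPKM in Suz12Δ and 6.77 FPKM in Eednull cells. The library with the highest protocadherin levels, Suz12GT, was thus not the one with the lowest pluripotency markers. The 5 neural progenitor markers were all at least 2-fold higher in E14 cells at day 5 than in ESCs, and 4 of 5 in Suz12Δ and 5 of 5 in Eednull cells were at least 2-fold lower than in E14 at day 5. In Suz12GT against E14 cells at day 5, 1 of the 5, Fabp7, was at least 2-fold higher (66.7 against 27.3 FPKM). Pax6 (8.18 against 21.9 FPKM) and Olig2 (10.5 against 22.1 FPKM) were at least 2-fold lower, and the list median was -0.96. In Suz12Δ and Eednull cells at day 5 Olig2 was at 0.107 and 0.0455 FPKM. Of the 3 choroid plexus or meninges markers, 2, Ttr and Folr1, were at least 2-fold higher than in E14 at day 5 in each of the other lines. Of all genes 16.8%, 26.6% and 21.6% were higher and 4.4%, 9.52% and 11.3% lower in the Suz12GT, Suz12Δ and Eednull comparisons. Folr1 was high in ESCs, at 24.1, 38.8, 25.5 and 53.7 FPKM in E14, CJ7, Suz12Δ and Eednull. At day 5 it was at 0, 3.43, 4.91 and 5.51 FPKM in E14, Suz12GT, Suz12Δ and Eednull cells. Ttr was at 0.0348 FPKM in E14, 0.356 FPKM in Suz12GT, 4.24 FPKM in Suz12Δ and 2.40 FPKM in Eednull cells at day 5, and Kl was under 0.11 FPKM in each library. Their part in the protocadherin levels was not tested.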
